A study of Mus musculus with 16 samples.

Results

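Guidance genes were taken as every gene whose symbol placed it among the class 3 to 7 semaphorins, plexins, neuropilins, ephrins, Eph receptors, Slits, Robos, netrins, Unc5 receptors and Flrts, together with the Notch receptors and their Delta-like and Jagged ligands. They were matched by symbol alone. The deposited tables held 45 of these genes, all 45 in the comparison of quiescent hepatic stellate cell (qHSC) fractions, which had 5716 rows. None of the 123 named rows of the GFP-high comparison of activated hepatic stellate cells (aHSCs) was a guidance gene. Of the 419 named rows of the GFP-intermediate comparison, 1 was, the plexin gene Plxna4. The mouse annotation used here (GENCODE vM21, GRCm38) has 82 protein-coding genes with matching symbols, so that 54.9% had a row in the qHSC table, against 22.4% of all 21951 annotated protein-coding genes. The 82 include Unc5cl and Unc50, which matched by spelling and belong to none of these families, and Unc50 had no row. The GFP-high and GFP-intermediate comparisons named only 123 and 419 rows beside 21951 annotated protein-coding genes. At such low shares, none or 1 of the 82 cannot be read as a result about guidance genes.

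Guidance molecules were first known for steering axons, and most act where cells touch or at short range, by attraction or repulsion that ends in a change of the cytoskeleton. Semaphorins bind plexins, the secreted class 3 semaphorins mostly through neuropilin co-receptors, ephrins bind Eph receptors on a neighbouring cell with signalling in both directions, Slits bind Robos, and netrins and Flrts bind Unc5 receptors. Notch receptors are cleaved when a neighbouring cell presents a Delta-like or Jagged ligand, and the freed part acts in the nucleus with the DNA-binding protein RBPJ. In vessels, Plxnd1, Nrp1, Robo4, Ephb4, Efnb2, Dll4 and Notch4 are known for their part in endothelial cells, sinusoids of the liver included, and Sema4a, Sema4d, Sema7a and Ephb6 are known from cells of the immune system.

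The quiescent cells came from WT1CreERT2;Ai14 mice of the C57/Bl6 strain, uninjured, in which tamoxifen given at E10.5 had switched on a red lineage label (RFP) in cells then expressing WT1, which in the liver at that day marks the mesothelium. The study's methods give them as heterozygous, with the inducible Cre knocked in at the WT1 locus, in label-positive and label-negative cells alike. From each of 3 animals, harvested after weaning, RFP-positive (label-positive) and RFP-negative (label-negative) qHSCs were sorted, giving 3 samples of each. The label thus records WT1 expression on a day in the embryo and not in the adult. The sex of these animals is male in the sample labels and female in the study's methods. The activated cells came from 6 male C57/Bl6 animals injured with carbon tetrachloride for 8 weeks, and all 10 samples were RFP-positive cells. Control animals were PDGFRbCre;WT1_+_GFP;Ai14, with 3 GFP-high and 2 GFP-intermediate samples (the latter named GFP low in the sample labels). WT1-deleted animals were PDGFRbCre;WT1_fl_GFP;Ai14, with 3 GFP-high and 2 GFP-intermediate samples. All of these animals, controls included, carried the Cre transgene and GFP in place of 1 WT1 allele, so the controls had a single working copy of the gene. PDGFRbCre is constitutive and, per the study's methods, also active in the germline, and RNA of 2 animals was pooled for 1 control sample of the GFP-intermediate group. The values deposited were 1 FPKM (fragments per kilobase, corrected for the number of fragments mapped) for each group and row, and the named rows are those with a q-value below 0.05 in the authors' deposited comparisons. How these rows were narrowed to the gene lists that the study describes for the WT1 deletion is not given in the sources used here. Each stands for all samples of its group. No spread between animals or depth can therefore be given. The authors' own p-values and q-values were not used, and the differences below are ratios of the group values without a test. The level of a gene without a row is not known from these tables. Family sums, shares and rankings below therefore cover only genes with a row, that is, genes called different by the authors.

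Markers of several cell types differed between the qHSC fractions, each list being given as the genes with a row of all genes listed. Of 21 endothelial genes, 20 had a row and each was higher with the label, with a summed FPKM of 5148 in the fraction without the label and 13937 in the fraction with it. All 20 lymphocyte genes were lower, with sums of 1763 and 66.3. Macrophage genes were split, 10 higher and 5 lower of 15 rows of 20 genes, with a median log2 ratio of 1.26. Their sums were 2071 and 1417, of which Lyz2 alone held 1283 and 289. The higher rows included Clec4f (34.2 and 166) and Marco (4.82 and 32.4), and the lower ones Cybb (91.9 and 25.8) and Ccr2 (68.2 and 7.93). Of 20 genes of quiescent stellate cells, 10 had a row, 3 higher and 7 lower, with sums of 137 and 70.3, while Lrat, Des and Reln, which define these cells, had none. Dcn alone held 109 and 49.0 of these stellate sums. The row of Pdgfrb held 0.905 without and 0.370 with the label. The 14 hepatocyte genes with a row of 15, the 10 mesothelial genes of 14 and the 3 cholangiocyte genes of 10 were all higher. The hepatocyte sums were 236 and 1579, with a median log2 ratio of 2.79, against 1.45 for the endothelial genes. Mesothelial sums were 88.2 and 255, mostly from Podxl (48.3 and 145) and Cav1 (22.2 and 57.5), and cholangiocyte sums were 27.7 and 74.1. No listed marker with a row was at 0 in either fraction. In sorted bulk RNA of this kind, fewer cells of a type and less RNA per cell cannot be told apart. The part of these cell types in the differences of the guidance genes was not tested, and their values are given beside the results they move with.

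Most guidance genes with a row were higher in label-positive qHSCs. Of the 45, 34 (75.6%) were higher, against 50.4% of all rows of the table, and 11 (24.4%) were lower, against 49.6% of all rows. With a log2 ratio of at least 1, 32 (71.1%) were higher, against 37.7% of all rows, and the 11 lower genes all passed the same limit, against 43.5%. The median log2 ratio, label-positive over label-negative, was 1.38 for the guidance genes and 0.64 for all rows, leaving out those with a group at 0. The higher genes lay close together, between 0.91 for Epha2 and 2.37 for Sema3g with a median of 1.48, where all higher rows had a median of 1.31 and an upper quartile of 1.61. The lower genes were spread more widely, from -1.62 for Plxna3 to -4.87 for Sema4f with a median of -2.61, where all lower rows had a median of -2.02. By role, 19 of 24 ligand genes and 15 of 20 receptor genes were higher, with median log2 ratios of 1.36 and 1.41. The summed FPKM of the ligands was 408 without and 863 with the lineage label, and that of the receptors was 774 and 2142. The log2 ratios of 25 of the 45 fell within the range of the endothelial markers, 1.28 to 2.20, and 31 within that of the mesothelial markers, 0.83 to 1.998. The hepatocyte range of 1.495 to 4.83 held 17 and the cholangiocyte range of 1.12 to 1.43 held 8. The macrophage and stellate ranges, which span both directions, held 41 and 42, so that lying within a range was not particular to any of these lists. Of the 11 lower genes, Sema4f alone fell within that of the lymphocyte markers, -5.92 to -3.63. Its ratio rests on a low FPKM of 0.129 in label-positive cells and was -2.08 with a pseudocount of 1.

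**Figure D1:**
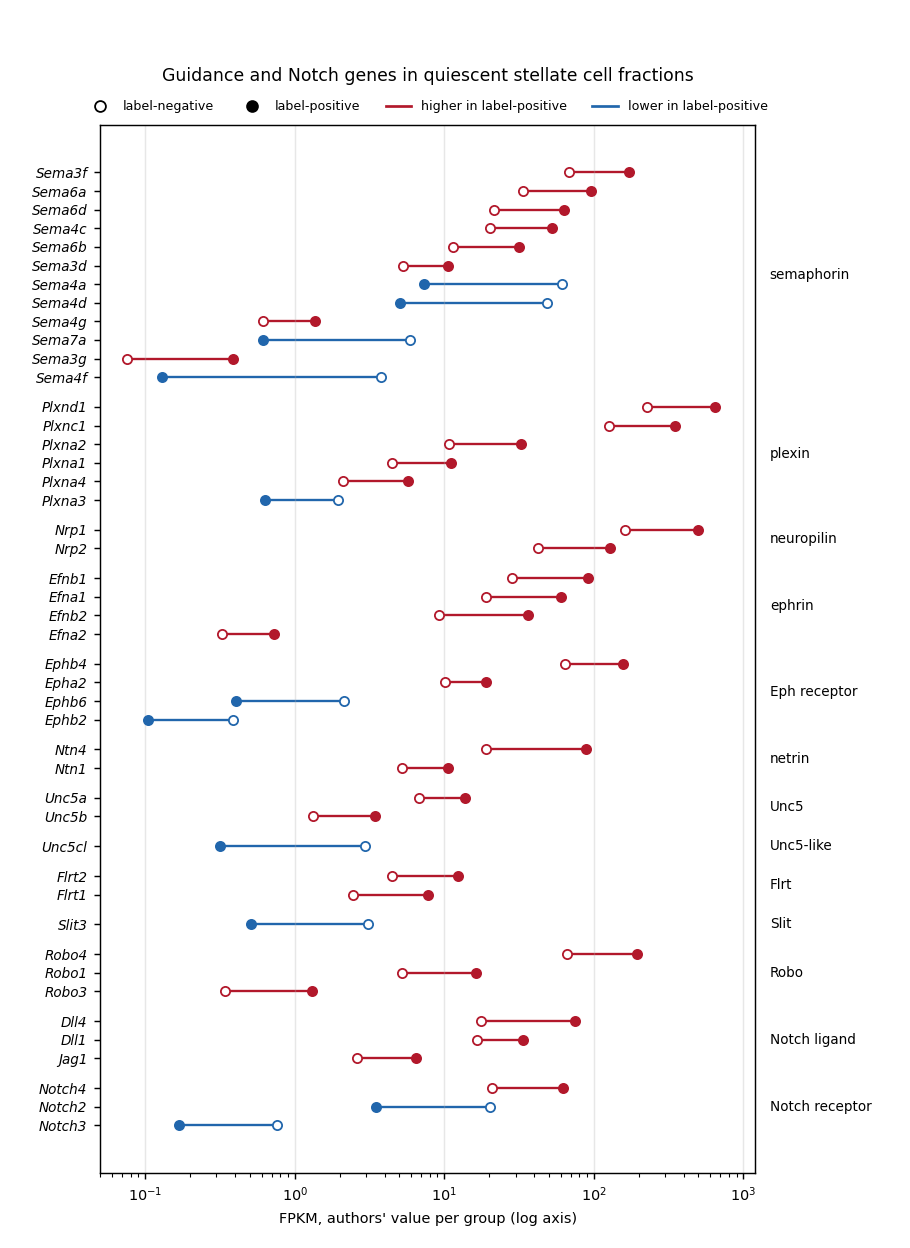
FPKM of the 45 guidance and Notch genes (horizontal log axis, the authors' value per group) in label-negative (open circles) and label-positive (filled circles) qHSCs, by family, with a line joining both values of a gene. The 34 genes in red were higher in label-positive cells by similar distances at every level, and the 11 in blue were lower, with 4 of them among the semaphorins.

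The promoters of these genes were read for short motifs because the study turns on WT1, a zinc finger factor that shares a GC-rich motif with the EGR factors, and because Notch signalling acts through RBPJ and endothelial genes are known for ETS factors. RefSeq promoter windows (GRCm38.p6, 250 bases before and 50 after a start site) were matched by symbol for 39 of the 45 genes, with 33 windows of 28 higher genes and 16 windows of 11 lower genes. GCGTGGG, searched on both strands, was in 6 of the 33 windows of higher genes (18.2%), those of Dll1, Epha2, Nrp2, Plxna2, Plxnd1 and Sema4c, in 1 of the 16 of lower genes (6.25%), that of Ephb2, and in 5.04% of all 32851 windows. The windows of higher and lower genes also had a median GC content of 63.7% and 60.7%, against 52.7% for all. The ETS motif CAGGAAG was in 12.1% of the windows of higher genes (Efnb1, Notch4, Robo4 and Sema6b), in 12.5% of those of lower genes (Plxna3 and Sema4d) and in 13.3% of all. The RBPJ motif GTGGGAA was in 3.03% of the windows of higher genes, that of Ntn4, in none of the 16 of lower genes and in 6.38% of all. The first and the last of these motifs share the letters GTGGG, but no window of a guidance gene held both. A match is a description of letters in these windows and no measurement of binding. The study reports that lobules of uninjured liver lacked WT1-positive cells, and an effect of WT1 on these genes was not tested. Below are the bases before the start, 5′ to 3′ on the strand of the gene up to the first base of any annotated exon. They are those of the most abundant receptor with a row (Plxnd1), a neuropilin, an ephrin, the Notch receptor that was higher and a semaphorin that was lower. Capitals mark the motif, GCGTGGG for Plxnd1 and Nrp2, CAGGAAG for Sema4d and its reverse complement for Efnb1 and Notch4.
Plxnd1, chr6:115995006-115995255, minus strand: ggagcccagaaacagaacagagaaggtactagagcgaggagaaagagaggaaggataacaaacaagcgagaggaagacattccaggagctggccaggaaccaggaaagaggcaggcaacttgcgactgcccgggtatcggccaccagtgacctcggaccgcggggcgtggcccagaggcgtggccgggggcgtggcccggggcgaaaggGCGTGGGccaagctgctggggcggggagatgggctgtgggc
Nrp2, chr1:62703067-62703284, plus strand: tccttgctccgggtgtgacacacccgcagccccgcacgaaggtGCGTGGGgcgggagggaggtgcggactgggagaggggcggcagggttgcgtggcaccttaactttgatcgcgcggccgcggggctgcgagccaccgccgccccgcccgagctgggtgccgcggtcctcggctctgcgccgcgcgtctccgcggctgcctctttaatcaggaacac
Efnb1, chrX:99135811-99136060, plus strand: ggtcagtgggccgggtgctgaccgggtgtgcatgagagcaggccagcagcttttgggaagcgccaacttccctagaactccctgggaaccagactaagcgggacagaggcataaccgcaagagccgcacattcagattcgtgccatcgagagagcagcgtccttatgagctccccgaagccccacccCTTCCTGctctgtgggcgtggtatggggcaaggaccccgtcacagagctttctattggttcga
Notch4, chr17:34564045-34564267, plus strand: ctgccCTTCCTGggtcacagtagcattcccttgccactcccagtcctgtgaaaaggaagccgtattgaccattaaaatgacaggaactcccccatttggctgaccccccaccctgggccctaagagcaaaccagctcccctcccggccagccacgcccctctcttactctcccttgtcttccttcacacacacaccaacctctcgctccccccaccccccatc
Sema4d, chr13:51756803-51756933, minus strand: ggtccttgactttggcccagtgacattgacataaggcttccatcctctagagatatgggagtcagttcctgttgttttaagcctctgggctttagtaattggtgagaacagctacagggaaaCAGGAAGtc
The first base of the motif lay 41 bases before the start in Plxnd1, 207 in Nrp2, 63 in Efnb1, 245 in Notch4 and 128 in Sema4d. For Sema4d this start lies inside the gene, which spans chr13:51685529-51793747 on the minus strand, and not at its 5′ end. The motif was thus at no common distance, and the ETS letters were in a gene that was higher and in a gene that was lower alike.

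Semaphorins had the most rows of any family, 12 of 20 annotated genes, with 8 higher and 4 lower. Sema3f, a secreted class 3 semaphorin that binds Nrp2, was the most abundant of those with a row in label-positive cells. Its FPKM was 68.2 without and 172 with the lineage label (log2 ratio 1.33). Sema3d, another secreted member, had 5.29 and 10.53 (0.99). Sema3g, which also binds Nrp2, had 0.0753 and 0.389, below 1 in both fractions, so that its log2 ratio of 2.37, the highest of all 45 genes, rests on low values. All 3 class 3 genes with a row were thus higher, while Sema3a, Sema3b, Sema3c and Sema3e had no row.

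The class 6 semaphorins span the membrane and bind class A plexins, and the 3 with a row of 4 were all higher. Sema6a, a ligand of Plxna2 and Plxna4, had an FPKM of 33.7 without and 95.3 with the lineage label (log2 ratio 1.502). Sema6d, a ligand of Plxna1, had 21.5 and 62.7 (1.54). Sema6b had 11.5 and 31.4 (1.45). Their 3 ratios differed by less than 0.1 on the log2 scale, whereas class 4, which also spans the membrane, was divided.

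Of the class 4 genes, 5 of 6 had a row, 2 higher and 3 lower. Sema4c, a ligand of plexin B2, was higher, with an FPKM of 20.1 without and 52.6 with the lineage label (log2 ratio 1.39). Sema4g had 0.618 and 1.36. The others went the opposite way and further. Sema4a, known for co-stimulation of T cells, was 8.35-fold lower in label-positive cells, with an FPKM of 60.8 without and 7.28 with the lineage label (-3.06). Sema4d, a ligand of plexin B1 found on T cells, was 9.54-fold lower, with 48.4 and 5.08 (-3.25). Sema4f was 29.3-fold lower, with 3.79 and 0.129 (-4.87), the lowest ratio of all 45 genes but one that rests on a low value. With a pseudocount of 1 it was -2.08, against -3.02 for Sema4d. Sema7a, the only class 7 semaphorin, is held at the membrane by a lipid anchor, binds Plxnc1 and had 5.86 and 0.618 (-3.25). The lymphocyte markers were lower in the same direction, with a median log2 ratio of -4.90 (20 of 20 genes, sums of 1763 and 66.3), while the macrophage markers were split, 10 higher and 5 lower, with a median of 1.26. Their part in the lower semaphorins was not tested.

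Among the 12 semaphorins with a row, all called different by the authors, the shares differed between the fractions more than the sum. Semaphorins without a row are not in the sum, so shares of the whole family are not known. The summed FPKM of the 12 was 280 without and 440 with the lineage label. The 4 lower genes together made up 42.5% of the sum without and 2.98% with the lineage label, with Sema4a alone at 21.7% and 1.66%. Sema3f made up 24.4% and 39.2%, and Sema6a 12% and 21.7%. Sema6a was at 0.554 times the FPKM of Sema4a in label-negative cells and at 13.1 times in label-positive cells.

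**Figure D2:**
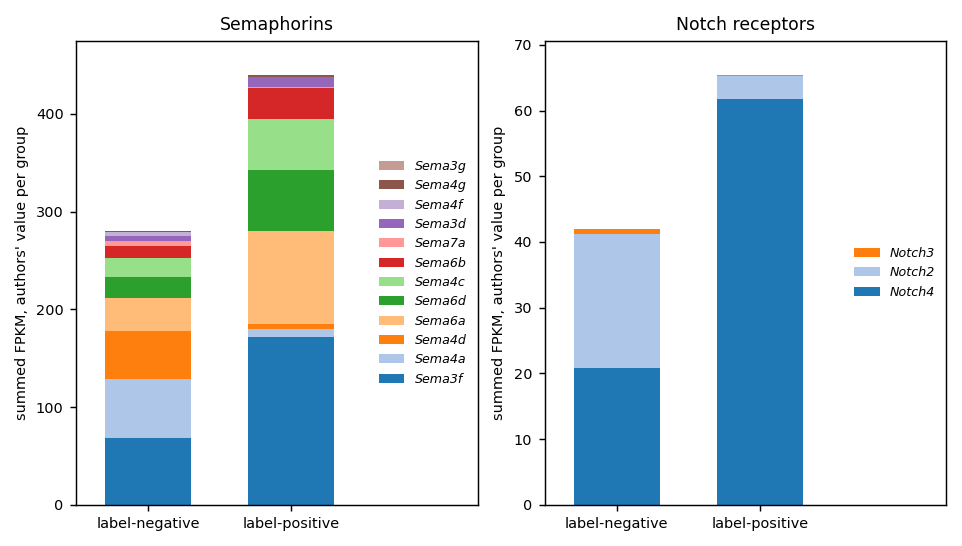
Summed FPKM (vertical axis, the authors' value per group) of the 12 semaphorin genes and of the 3 Notch receptor genes with a row, in label-negative and label-positive qHSCs, each segment being 1 gene. Sema4a and Sema4d took 21.7% and 17.3% of the semaphorin sum in label-negative cells and thin segments in label-positive cells, and Notch2 took 48.5% and 5.34% of the Notch receptor sum.

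Plexins, the semaphorin receptors, included the most abundant guidance gene with a row in both fractions. Plxnd1, a receptor on endothelial cells for Sema3e, had an FPKM of 226 without and 648 with the lineage label (log2 ratio 1.52), rank 235 and rank 50 of the 5716 rows. Plxnc1, the receptor of Sema7a, had 126 and 349 (1.47). Both stood far above the class A plexins, and the higher receptor Plxnc1 and its lower ligand Sema7a went in opposite directions. Plxna2 had 10.7 and 32.5 (1.61), Plxna1 had 4.51 and 11.1 (1.302), and Plxna4 had 2.10 and 5.68 (1.43). Plxna3 alone was lower, with 1.95 and 0.635 (-1.62). All 4 class A plexins thus had a row and 3 were higher, while none of the 3 class B plexins, the receptors of class 4 semaphorins, had one. The summed FPKM of the plexins was 372 and 1046, of which Plxnd1 took 60.9% without and 61.9% with the lineage label, so that the order and shares of the abundant plexins were nearly those of the other fraction.

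Both neuropilins, co-receptors for class 3 semaphorins and for vascular endothelial growth factor, were higher by nearly the same ratio. Nrp1 had an FPKM of 163 without and 498 with the lineage label (log2 ratio 1.62), rank 298 and rank 76. Nrp2 had 42.0 and 129 (1.62). The level of Nrp1 was 3.87 times that of Nrp2 in each fraction. The endothelial receptors for that growth factor behaved alike, Kdr with 272 and 848, and the endothelial list as a whole had a median log2 ratio of 1.45 with sums of 5148 and 13937, and its part in the neuropilins and plexins was not tested.

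**Figure D3:**
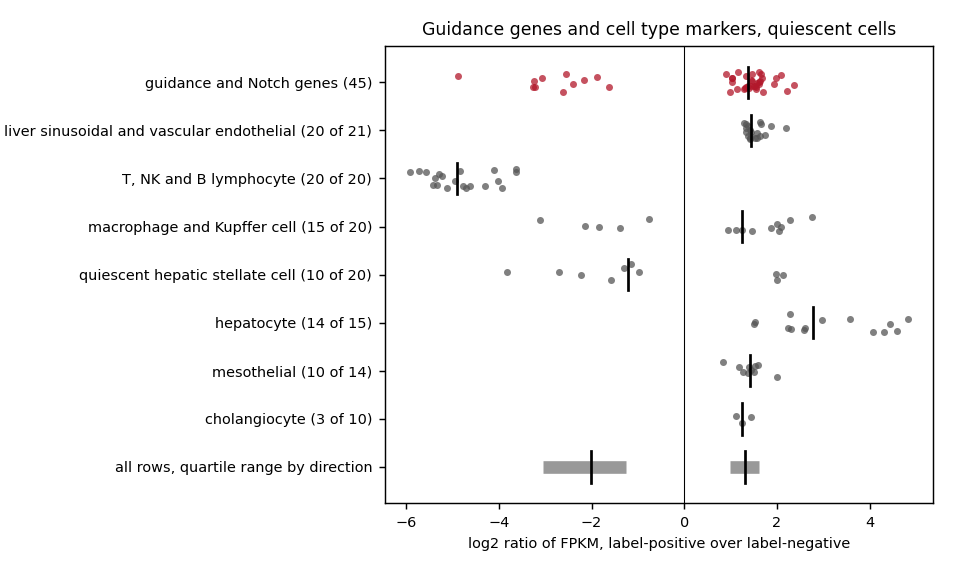
Log2 ratio of the FPKM, label-positive over label-negative qHSCs (horizontal axis), for each of the 45 guidance and Notch genes (red) and the genes of 7 marker lists with a row (grey, genes with a row of genes listed), with a black bar at each median and vertical scatter only to part the points. The bottom line spans the quartiles of all lower and all higher rows. The higher guidance genes (median 1.48) lie near the medians of several lists, endothelial (1.45), mesothelial (1.42), macrophage (1.26) and cholangiocyte (1.25). The median of all higher rows, 1.31, lies there as well, so this place is not particular to any list. Most lower guidance genes lie between the lymphocyte markers and 0.

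Ephrins and Eph receptors were few in the table, 4 of 8 ligands and 4 of 14 receptors. All 4 ephrins were higher. Efnb1, a membrane-spanning ligand, had an FPKM of 28.4 without and 91.8 with the lineage label (log2 ratio 1.69). Efna1, a lipid-anchored ligand of Epha2, had 18.9 and 60.3 (1.67). Efnb2, the ephrin of arterial endothelium, had 9.28 and 36.5 (1.97). Efna2 had 0.326 and 0.729, below 1 in both fractions. The summed FPKM of the ephrins was 56.9 and 189, of which Efnb1 took 49.9% and 48.5%.

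Of the Eph receptors, Ephb4 and Epha2 were higher and Ephb2 and Ephb6 were lower. Ephb4, the receptor of Efnb2 known from venous endothelium, had an FPKM of 63.8 without and 156 with the lineage label (log2 ratio 1.29) and made up 83.4% and 88.8% of the Eph sum. Epha2 had 10.2 and 19.1 (0.91), the smallest ratio among the higher genes. Ephb6, whose kinase domain is inactive and which is known from T cells, had 2.14 and 0.404 (-2.41). Ephb2 had 0.384 and 0.105, below 1 in both fractions. In both of the fractions the venous receptor exceeded its arterial ligand, Ephb4 being at 6.87 times the FPKM of Efnb2 without and 4.28 times with the lineage label.

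The Slit and the Robo genes with a row went in opposite directions. Slit3, a secreted ligand and the only Slit with a row, was 6.09-fold lower in label-positive cells, with an FPKM of 3.10 without and 0.509 with the lineage label (log2 ratio -2.61). All 3 Robo receptors with a row were higher. Robo4, the Robo of endothelial cells, had 66.1 and 193 (1.55), Robo1 had 5.25 and 16.2 (1.62), and Robo3 had 0.340 and 1.31 (1.94). Robo4 took about the same share of the Robo sum in each fraction (92.2% and 91.7%), whereas its level was 21.3 times that of Slit3 without and 379 times with the lineage label. The 379 rests on the low Slit3 value of 0.509, and with a pseudocount of 1 the log2 ratio of Slit3 was -1.44. It sets 2 RNA levels side by side and does not show that Slit3 and Robo4 bind each other. Dcn, a matrix gene of the stellate list, was lower with Slit3 (FPKM 109 and 49.0), as were 7 of the 10 stellate rows, whose part was not tested.

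Netrins, Unc5 receptors and Flrts with a row were all higher. Ntn4, a netrin of basement membranes, was 4.63-fold higher, with an FPKM of 19.1 without and 88.4 with the lineage label (log2 ratio 2.21), the largest ratio among the higher genes with an FPKM of at least 1. Ntn1, the classical netrin, had 5.23 and 10.6 (1.02). Ntn4 was thus at 3.65 times the level of Ntn1 without and 8.31 times with the lineage label. Of the receptors, Unc5a had 6.79 and 13.8 (1.03) and Unc5b, known from endothelial cells, had 1.33 and 3.45 (1.38). Flrt2, a membrane protein that binds Unc5 receptors, had 4.50 and 12.3 (1.45), and Flrt1 had 2.47 and 7.77 (1.65). Unc5cl was chosen by its symbol but is an intracellular protein with a death domain and no guidance receptor, and it was lower, with 2.96 and 0.318 (-3.22).

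Among the Notch genes the ligands went one way and the receptors parted. Dll4, the Notch ligand of sprouting vessels, was 4.24-fold higher, with an FPKM of 17.6 without and 74.7 with the lineage label (log2 ratio 2.08). Dll1 had 16.5 and 33.6 (1.02), and Jag1 had 2.59 and 6.48 (1.32). Dll4 and Dll1 were therefore near equal in label-negative cells, at a ratio of 1.07, whereas Dll4 was at 2.23 times Dll1 in label-positive cells. Notch4, the Notch receptor of endothelial cells, was higher, with 20.9 and 61.7 (1.56). Notch2, which is found in many liver cells, was 5.83-fold lower, with 20.3 and 3.49 (-2.54). Notch3, the Notch of vessel mural cells, had 0.756 and 0.170, below 1 in both fractions. Notch4 and Notch2 were at nearly the same level in label-negative cells, with a ratio of 1.03, and Notch4 was at 17.7 times Notch2 in label-positive cells. Among the 3 Notch receptors with a row, Notch4 thus made up 49.7% of the sum without and 94.4% with the lineage label. Notch1 had no row, so its share is not known. Of the endothelial markers, Erg, an ETS factor, had 17.9 and 82.5 (2.20) and Cdh5 had 129 and 383, and their part in the Notch genes was not tested.

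Other genes of both pathways were counted from lists. Of 48 further Notch pathway genes, 13 had a row in the qHSC table, against 22.4% of all protein-coding genes. Of these 7 were higher and 6 lower, a split near the 50.4% and 49.6% of all rows, and their median log2 ratio of 0.60 was near the 0.64 of all rows. The most abundant higher ones were Hes1, the classical Notch target, with an FPKM of 68.5 without and 173 with the lineage label, Psen2, a part of the protease that frees the active Notch fragment, with 63.0 and 118, and Numb, an inhibitor of Notch, with 48.7 and 115. The most abundant lower ones were Lfng, which adds sugars to Notch, with 52.1 and 24.3, Dtx1, a ubiquitin ligase of the pathway, with 36.9 and 1.59, and Rbpj with 17.6 and 10.7.

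Of 40 further guidance co-receptors and effectors, 21 had a row, against 22.4% of all protein-coding genes, and 14 were higher and 7 lower, against 50.4% and 49.6% of all rows. Their median log2 ratio was 0.98, against 0.64 for all rows. The most abundant higher ones were the adaptor Nck1 with an FPKM of 47.8 and 94.4, the protease Adam10, which is on both lists, with 50.05 and 76.0, and Arhgef12, an effector bound by class B plexins, with 16.5 and 56.2. The most abundant lower ones were the actin-binding Ablim1 with 74.1 and 4.21, the kinase Ptk2b with 62.7 and 6.80, and Mical1, an oxidoreductase downstream of plexins, with 29.4 and 8.02. Effectors of the same pathways thus stood in both directions.

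In aHSCs of the WT1 deletion, Plxna4 was the guidance gene with a row. In GFP-intermediate cells, the authors' FPKM was 10.2 for the 2 control samples and 23.97 for the 2 WT1-deleted ones, a log2 ratio of 1.24 and 2.36 times the control level. Of the named rows of this comparison, 37.2% were higher and 62.8% lower in WT1-deleted cells, and 1 gene cannot be read against that share. Higher rows had log2 ratios of at least 1.11 and a median of 1.54, so that Plxna4 stood near the lower end of them. The gene lies at chr6:32144268-32588192 on the minus strand (GRCm38), and an antisense gene, Plxna4os3, shares 110 bases with its exons (0.78%). Plxna4 was also among the genes higher in label-positive qHSCs, but the tables were normalised separately, so its levels in quiescent and activated cells cannot be set against each other.

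Of the 40 further guidance genes, Dpysl3, a cytoskeletal protein downstream of semaphorins, and Neo1, a receptor for netrins, had a row in GFP-intermediate cells and both were higher after WT1 deletion. Dpysl3 went from an FPKM of 5.47 in controls to 20.5 (log2 ratio 1.91), and Neo1 had 14.2 and 36.5 (1.37). Marker genes differed as well, in both directions. All 12 macrophage rows were lower in WT1-deleted cells, with sums of 5373 and 1339. Both endothelial rows (Stab1 and Cdh5) were lower, with sums of 138 and 38.9, and both lymphocyte rows (Cd22 and Gzma) were lower, with sums of 17.1 and 4.39. The 3 stellate rows (Rgs5, Colec11 and Pdgfra) were higher, with sums of 23.2 and 62.2, as were both cholangiocyte rows (Epcam and Sox9), with sums of 2.97 and 10.4. Pdgfra had an FPKM of 18.8 and 43.4 (1.20), Colec11 had 2.92 and 10.7 (1.87) and Rgs5 had 1.41 and 8.20 (2.54), beside 1.24 for Plxna4. The part of the marker genes in the value of Plxna4 was not tested. In GFP-high cells, 77.2% of the 123 named rows were higher and 22.8% lower in WT1-deleted cells. Cuffdiff2 as run by the authors called 0 guidance genes there. Beside 21951 annotated protein-coding genes, 123 named rows are a low share, so that 0 of 82 cannot be read as a result about guidance genes. The number there below an unadjusted p-value of 0.05 is not known from the rows used here. The listed Notch pathway gene with a row there was Maml2, a co-activator of Notch, in a row shared with AC169127.1, with 46.4 for controls against 3.12 after deletion (log2 ratio -3.89), so that neither gene of that row can be told from the other.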

How the data were processed

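RNA had been measured in 16 samples of sorted mouse HSCs, grouped by the sample labels. The study's methods state that the authors mapped reads with bowtie 2 and called genes with Cuffdiff2. The submitters' processing notes name TopHat2 2.0.3, Cufflinks 2.0.1 and DESeq2 and the builds mm9 and mm10, without saying which build each table used, and strandedness is not stated. The authors deposited FPKM values in 3 tables, 1 value per group and row, normalised separately. The deposited comparison tables repeat these FPKM values and hold the authors' fold change, p-value and q-value, which were not used, while their Ensembl identifiers were. The GFP-high and GFP-intermediate tables also hold 108 and 149 loci without a gene name, which could not be matched.

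Log2 ratios were taken on the FPKM scale without a pseudocount. No counts and no values per sample were used, so the tests foreseen for them were replaced by descriptions, and the read depth is unknown. Every guidance gene with a row was named, with its log2 ratio where an FPKM reached 10 or the ratio was the largest of its family in a direction at an FPKM of at least 1. For each pathway list the 3 most abundant genes in each direction were named, and further markers were named after their values were seen. The genes and lists were chosen with earlier results of these data known. Values of Wt1 were not analysed here. Exon overlaps and positions came from GENCODE vM21 and promoters from RefSeq (GRCm38.p6). Alternatives were pseudocounts of 1 and 0.1, an FPKM of at least 1, an absolute log2 ratio of at least 1, rows naming 1 gene, upper-quartile scaling and centring on the median ratio. Python 3.11.15, pandas 2.3.3, numpy 2.4.6 and matplotlib 3.10.9 were used.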

Additional observations from a re-analysis of the deposited data

How the results depend on the processing

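No direction of a guidance gene changed under upper-quartile scaling or centring, the only alternatives that could change one. A pseudocount cannot turn the sign of a ratio, and the other settings only left out rows. The counts in qHSCs were 34 higher and 11 lower genes, and among genes reaching an FPKM of 1 they were 32 and 9. The median log2 ratio moved by over 1.5 times under centring alone, when the median ratio of all rows was set to 0: it was then 0.74 in place of 1.38 in qHSCs, and that of Plxna4 in GFP-intermediate cells was 2.57 in place of 1.24. Those shifts are the median log2 ratios of all rows, 0.64 in qHSCs and -1.33 in GFP-intermediate cells (named and unnamed rows). Relative to them the 34 higher genes stayed higher, the least being Epha2 at 0.27 and Sema3d at 0.35. Upper-quartile scaling moved qHSC ratios by 0.05 and gave 1.64 for Plxna4. With a pseudocount of 1, 12 of 46 single ratios moved by over 1.5 times, all of genes with an FPKM below 10 in both groups, among them Sema4f at -2.08 and Sema3g at 0.37.

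No paired analysis was possible because only group values were used, and leaving out single samples was not run for the same reason. With 1 value per group, no difference can be set against the spread between animals, and ratios of genes below an FPKM of 1 rest on few reads at a depth that is unknown. The share of exon bases in common with another gene was 20.5% for Dll1 (A930024N18Rik, opposite strand), 10.7% for Plxna1 (Gm26811, opposite), 7.27% for Sema4c, 6.03% for Notch3, 5.56% for Dll4 and 5.02% for Notch2 (Gm42820, same strand), and how reads of such pairs were counted is not stated.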
